A study of Drosophila melanogaster with 4 samples.

Results

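Larval heads of Drosophila melanogaster with an RNA interference (RNAi) construct in their glia were set against larval heads with none, and 127 genes stood at least 2-fold apart between the sides out of 11534 genes with 10 or more counts in 1 or more libraries, of 11880 genes listed. Of these, 57 genes were higher and 70 were lower in both RNAi libraries. The genes were chosen by the counts themselves. A gene was taken when both RNAi values lay at least 2-fold above, or both at least 2-fold below, both other values. The size of each difference is therefore what put the gene in the set, and it is given as a description with no test.

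Poly-A RNA was sequenced from 4 genotypes, 1 library each, and the labels place all of them in 1 batch. Every genotype carried the glial driver repo-Gal4, the temperature-sensitive repressor Gal80[ts] under tub, and UAS-myrRFP, a membrane-bound red fluorescent protein, and the Control larvae carried nothing more. The Glioma larvae added UAS-dEGFR[L] and UAS-dp110[CAAX], constructs for the receptor EGFR and for the catalytic subunit of the lipid kinase PI3K. The Ca-alpha1T RNAi larvae carried both of those plus UAS-Ca-alpha1T-RNAi, against a T-type calcium channel, and the slo RNAi larvae both of those plus UAS-Slo-RNAi, against a calcium-activated potassium channel. Eggs were laid over 3 days at 25 °C, and larvae were then held for 5 days at 29 °C, which releases Gal4. Both RNAi genotypes thus also carry the EGFR and PI3K constructs, as Glioma does and Control does not, so the side without RNAi mixes 2 genotypes. The constructs act in glia, whereas a larval head holds brain, muscle, fat body, salivary gland, gut and epidermis as well. The labels do not say how many heads were pooled.

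In flies, glia form the blood-brain barrier and exchange signals with the fat body, gut and blood cells, and secreted peptides and cytokines carry such signals. Larval midgut cells secrete trypsin-like and chymotrypsin-like serine proteases, among them the Jonah family, and lipases. Infection or tissue damage induces antimicrobial peptides, and cuticle genes follow the moulting cycle.

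Total counts ranged from 31594447 to 38826243 per library. Scaled counts, CPM (counts per 1000000 counts of the TMM-scaled library size), are used throughout for 1 gene across libraries. The gap is the log2 ratio of the nearest pair across the sides, such as the lower RNAi value over the higher other value, and its 95% interval is an exact conditional binomial interval of those counts. Intervals cover counting error only, and reads copied by PCR are not independent molecules. With 1 library per genotype there is no replicate error, and no difference below has a replicate check. Markers of glia, neurons, muscle, fat body, salivary gland, gut, hemocytes and epidermis, 40 genes in all, were each detected. The summed glial markers stood at 995 CPM in Control and 1163 in Glioma, against 1001 under Ca-alpha1T RNAi and 955 under slo RNAi. The single markers differed in direction. Gs2, the largest part of the sum, stood at 631, 505, 450 and 383 CPM in that order, and moody at 26, 174, 129 and 140 CPM. Other tissues differed more, with summed muscle markers at 13678, 47932, 17842 and 28705 CPM and summed salivary gland markers at 18148, 1022, 849 and 7217 CPM. Their part in the differences below was not tested. Neither targeted gene belonged to the set. Across Control, Glioma, Ca-alpha1T RNAi and slo RNAi, the order used for unlabelled values below, Ca-alpha1T stood at 12.9, 19.1, 16.6 and 17.8 CPM, and slo at 23, 34.2, 33.2 and 25.0 CPM. The libraries labelled for each RNAi both lay between Control and Glioma for their own target. The EGFR gene Egfr stood at 182 CPM in Control and 897 in Glioma, against 962 and 651 under Ca-alpha1T and slo RNAi, the PI3K gene Pi3K92E at 98.6, 903, 880 and 373 CPM, and repo at 16.7, 36.6, 40.9 and 38.2 CPM.

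**Figure D1:**
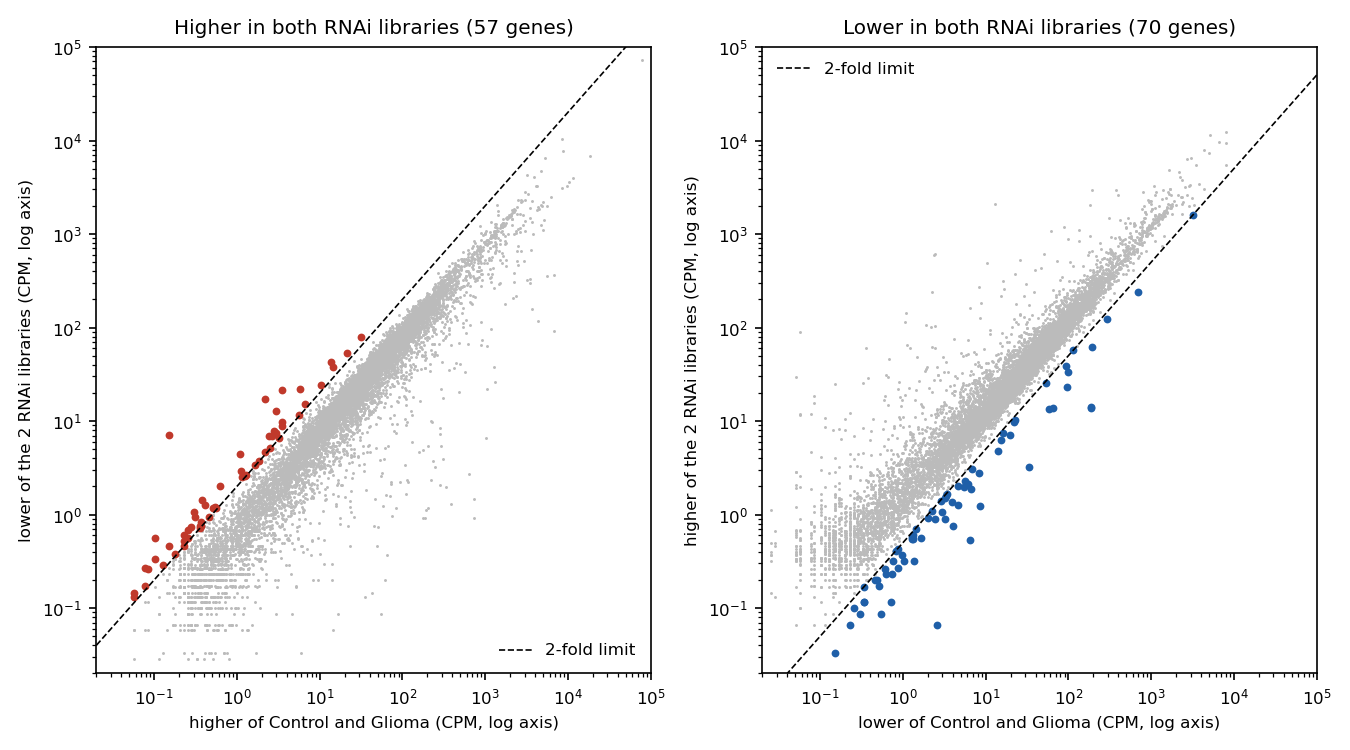
Each point is 1 of the 11534 detected genes, on log axes of scaled counts (CPM). The left panel sets the lower RNAi value against the higher of Control and Glioma, with the 57 genes above the dashed 2-fold limit in red, and the right panel sets the higher RNAi value against the lower of Control and Glioma, with the 70 genes below the limit in blue.

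The 57 higher genes were 0.494% of the detected genes and the 70 lower genes 0.607%, together 1.1%. With no fold limit, both RNAi values lay above both others in 14.2% of detected genes and below both in 15.7%. Most genes of the set were weakly expressed. Their median level over the 4 libraries was 1.89 CPM on the higher side and 2.51 CPM on the lower side, against 22.2 CPM for all detected genes. No library held 50 counts for 24 of the higher genes and 18 of the lower genes. The counting interval of the gap excluded equality for 46 of the 57 higher genes and 61 of the 70 lower genes. The rule chose the genes by these same counts, so these numbers reflect depth and support nothing further. The gap reached 4-fold in 6 higher and 14 lower genes, and its median size was 2.52-fold and 2.78-fold. On the authors' TPM the same rule gave 81 higher and 55 lower genes, which moved the higher share of all calls from 44.9% to 59.6%. There the median log2 ratio of the mean RNAi to the mean other value, over all detected genes, stood at 0.12 in place of −0.02.

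Digestive enzyme genes were a group on the lower side. Of the 46 detected genes of a list of gut proteases, sugar-digesting enzymes and lipid-handling proteins, 8 were lower in both RNAi libraries (17.4%) and none was higher, beside the 0.607% of all genes. Both RNAi values lay below both others, by any amount, in 21 of the 46, and above both in none. Over all detected genes these shares were 15.7% and 14.2%. The median log2 ratio of the mean RNAi to the mean other value was −0.85 in the list, beside −0.02 over all detected genes. The rule used this contrast, so these shares describe the list and support nothing further. The list's summed level was 28328 CPM in Control and 45794 in Glioma, against 19630 under Ca-alpha1T RNAi and 15118 under slo RNAi.

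The trypsin gene epsilonTry was by far the most abundant of the set. It stood at 3226 CPM in Control and 5004 in Glioma, against 1595 under Ca-alpha1T RNAi and 1113 under slo RNAi, a gap of −1.02 (−1.03 to −1.0). Per length, its level on the authors' FPKM was 3320, 4337, 1696 and 989 in the same order, and its gap narrowed below 2-fold on FPKM, TPM and total counts. CG18180, which RefSeq also lists as SP151 in the numbered serine protease series, stood at 699, 2332, 242 and 217 CPM, a gap of −1.53 (−1.57 to −1.50). In both genes the RNAi libraries lay near each other and Glioma lay highest.

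In the Jonah genes, which encode midgut serine proteases, the RNAi libraries lay further apart. Jon99Fii stood at 95.3 CPM in Control and 332 in Glioma, against 22.9 under Ca-alpha1T RNAi and 1.99 under slo RNAi, a gap of −2.06 (−2.17 to −1.95). Its neighbour Jon99Fi, listed as a serine protease homologue, stood at 98.2, 175, 33.6 and 4.94 CPM. In this pair slo RNAi was lowest, whereas Jon65Ai was lowest with Ca-alpha1T RNAi, at 114, 478, 20.3 and 56.8 CPM, and lay just inside the limit. Jon74E differed in that Control and Glioma were close, at 16.7 and 14.2 CPM, against 4.83 and 2.16 CPM with Ca-alpha1T and slo RNAi. Jonah genes resemble each other closely, and reads may have been assigned to the wrong copy. Jon44E, which the rule did not take, had 17.4, 310, 15.9 and 3.91 CPM, so that Control was near the Ca-alpha1T RNAi library.

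Serine proteases without a Jonah or trypsin name were lower too. CG17571 (SP83) had 59.0 CPM in Control and 205 in Glioma, against 13.3 under Ca-alpha1T RNAi and 1.16 under slo RNAi. Ser6 followed the same ranking, with 6.67, 17.6, 1.87 and 0.796 CPM. CG11912 (SP140) had the largest gap on this side, with 100 counts in Control, 513 in Glioma and 2 in each RNAi library, a gap of −5.26 (−8.33 to −3.37). Its neighbour CG11911 (SP103) had 333, 1800, 43 and 22 counts. Counting the names SP and SPH with a number in the RefSeq synonyms, a grouping chosen after the values were seen, 138 proteases and 48 protease homologues were detected. Of the proteases 11 were lower (7.97%) and 1 was higher (0.725%). These 11 include epsilonTry, CG18180, Jon65Ai, Jon74E and Jon99Fii, given above. They overlap the digestive list, for example in Jon99Fii, Jon74E and Ser6, so the 2 shares are not separate observations. Of the homologues, which generally lack a catalytic residue, 1 was lower (2.08%) and 5 were higher (10.4%). The shares over all detected genes were 0.607% lower and 0.494% higher, the families were not tested against each other, and 4 of the 5 higher homologues are 1 run of neighbouring genes. The other proteases of the set named this way were CG1304 and CG8299 on the lower side and CG30090 on the higher. CG1304 lies beside Ser6 and had 126 counts in Control and 499 in Glioma, against 52 under Ca-alpha1T RNAi and 9 under slo RNAi.

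**Figure D2:**
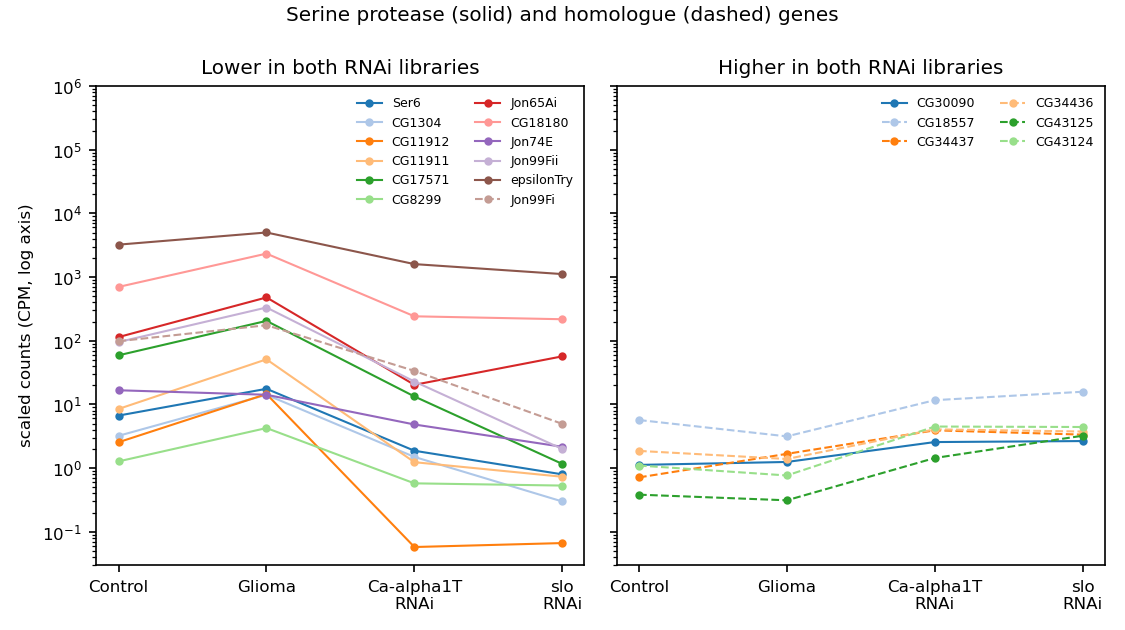
Scaled counts (CPM, log axis) in the 4 libraries for the serine protease genes of the set (solid lines) and the protease homologues (dashed), with a line joining the 4 values of 1 gene. In the left panel both RNAi values of all 12 genes lie below Control and Glioma, with epsilonTry highest at 5004 CPM in Glioma, and in the right panel both RNAi values of all 6 genes lie above, none over 15.8 CPM.

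The lipid-handling genes mag and Npc2d of the same list were also lower. The gene mag encodes magro, an intestinal lipase and cholesterol esterase, and stood at 293 CPM in Control and 385 in Glioma, against 122 under Ca-alpha1T RNAi and 113 under slo RNAi, a gap of −1.26 (−1.31 to −1.21). Npc2d, of a family of sterol-binding proteins, stood at 21.9, 37.9, 5.46 and 9.85 CPM. Dgat2, outside the list, encodes an enzyme of triglyceride synthesis and was lower on few reads, with 206, 164, 70 and 22 counts. It is named here after its values were seen, and its gap fell short of 2-fold on total counts, FPKM and TPM.

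Genes of gut cells that are not secreted enzymes were looked at beside these. A list of 10, holding mex1, Myo31DF, GATAe and the smooth septate junction genes Ssk, mesh and Tsp2A, was added after the values were seen. None of its genes belonged to the set, beside 1.1% of all detected genes. An empty list of this size is near that share and says nothing particular about gut cells. Both RNAi values lay below both others in 1 of the 10 and above both in 0, beside 15.7% and 14.2% of all detected genes. That gene was cad, which encodes the homeobox transcription factor Caudal, at 1.83, 2.83, 0.604 and 1.29 CPM. The list's summed level was 338 CPM in Control and 343 in Glioma, against 432 under Ca-alpha1T RNAi and 241 under slo RNAi. The 3 secreted gut markers Jon99Ci, Amy-p and Mal-A1 summed to 47.3, 153, 129 and 27.2 CPM, so the RNAi libraries lay on either side of Control. In bulk heads, fewer cells of a type and less RNA per cell cannot be told apart.

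Metallothioneins, small proteins that bind copper and other metals, gave a further neighbouring pair on the lower side. MtnD had 17.6 CPM in Control and 15.4 in Glioma, against 6.30 under Ca-alpha1T RNAi and 3.38 under slo RNAi, a gap of −1.29 (−1.52 to −1.06). MtnE had 25.6, 16.3, 7.51 and 2.75 CPM. Both gaps fell short of 2-fold on the authors' FPKM and TPM, and that of MtnE also on total counts. In the metal-binding list 2 of 17 detected genes, this neighbouring pair, were lower (11.8%, beside 0.607% of all genes) and none higher. The ferritin gene Fer2LCH, at 612, 599, 402 and 411 CPM, was outside the limit while below both others, as were Fer1HCH, Ctr1B, Tsf2 and CG43222. The metallothionein genes MtnA and MtnB of this list did not separate the sides. MtnA, far more abundant than the pair, stood at 135, 301, 116 and 151 CPM, and MtnB at 0.407, 2.72, 2.01 and 0.630 CPM.

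Culd stood far apart between the sides. It encodes a protein with CUB and LDLa domains, known from fly photoreceptors for its part in membrane protein traffic, and lies on 3L at 8352355 to 8356296 in dm6 coordinates. It stood at 189 CPM in Control and 222 in Glioma, against 9.95 under Ca-alpha1T RNAi and 14.1 under slo RNAi, with 346 counts or more in each library. The 2 values within each side lay within 1.5-fold, and the gap was −3.75 (−3.89 to −3.60), or 13.4-fold. The gene hiro, for a carboxypeptidase that acts in rhodopsin turnover, was also lower, at 53.9, 93.0, 2.24 and 25.5 CPM, but there the RNAi libraries were far apart. None of the 20 detected genes of the eye and photoreceptor list belonged to the set, which is near the 1.1% of all detected genes.

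A 28S ribosomal RNA pseudogene, 28SrRNA-Psi:CR45862, had 9078 counts in Control and 6594 in Glioma, against 129 under Ca-alpha1T RNAi and 416 under slo RNAi, a gap of −3.76 (−3.90 to −3.62). Ribosomal RNA repeats are near-identical, and its reads may belong to other copies. Among genes known only by number, CG44215 had 34.2, 33.2, 2.90 and 3.22 CPM in the order Control, Glioma, Ca-alpha1T RNAi and slo RNAi. Here too the values within each side were close. CG31041 stood at 10.2, 6.51, 0.374 and 0.531 CPM, and CG8560 at 191, 445, 41.9 and 61.4 CPM.

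PGRP-SB1, a secreted peptidoglycan recognition protein gene, was the 1 lower member of the 27 detected genes of peptidoglycan recognition and Toll or Imd signalling (3.70%, beside 0.607% of all genes). It had 163 counts in Control and 115 in Glioma, against 31 under Ca-alpha1T RNAi and 16 under slo RNAi. AOX4, an aldehyde oxidase gene, stood at 5.53, 8.16, 1.98 and 0.531 CPM, and sxe2 at 3.90, 4.45, 1.04 and 1.36 CPM. Other lower genes, chosen for naming after their values were seen apart from Cpr92A, were the odorant receptor gene Or71a, the ciliary transport gene Oseg5, the cuticle gene Cpr92A and the Osiris gene Osi7, and all 4 had 184 counts or fewer in every library.

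**Figure D3:**
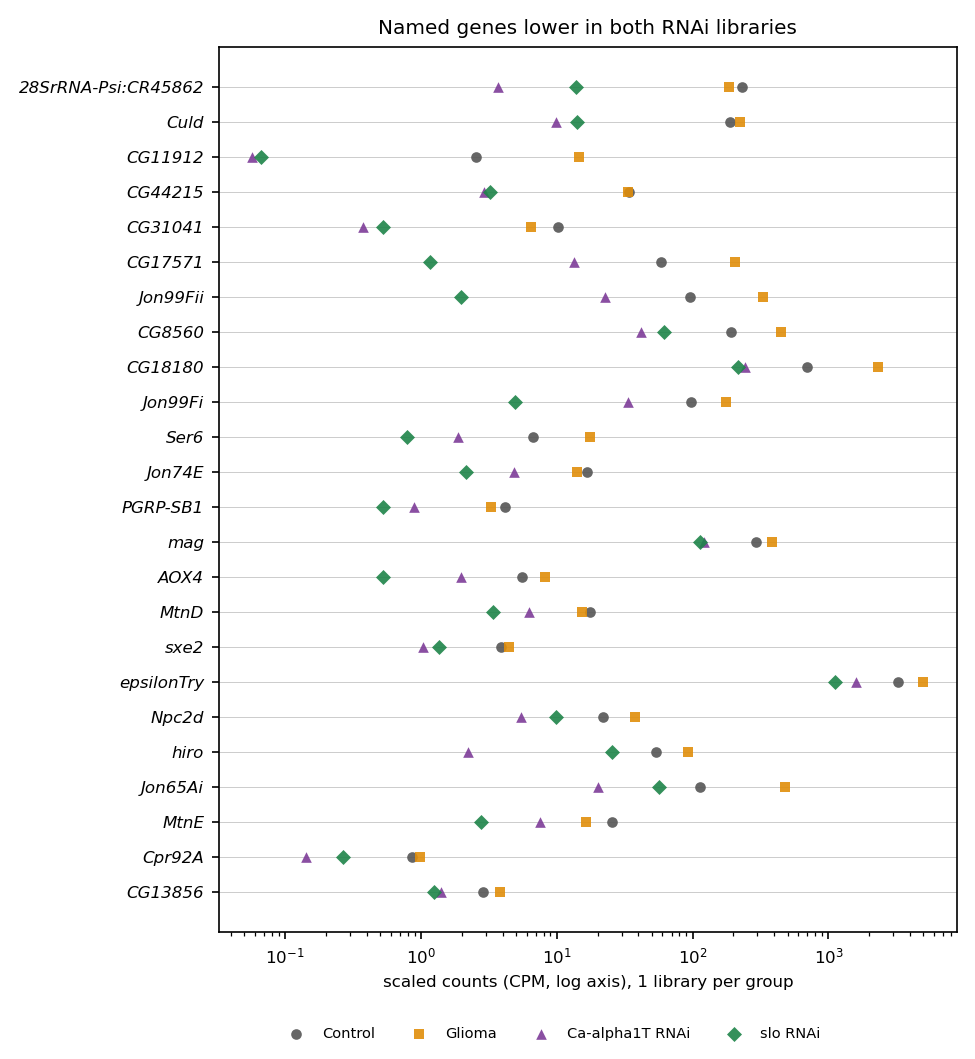
Scaled counts (CPM, log axis) of the named genes lower in both RNAi libraries, 1 point per library, ordered by the bound of the gap nearest to 0. Purple triangles and green diamonds, the RNAi libraries, lie left of the grey circles (Control) and orange squares (Glioma) in each row, from 0.0575 CPM for CG11912 to 5004 CPM for epsilonTry.

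On the higher side, the 5 genes with the largest interval bound were TwdlO, CecC, CG12506, Osi2 and y. TwdlO, of the Tweedle family of cuticle proteins, had 6 counts in Control and 4 in Glioma, against 247 under Ca-alpha1T RNAi and 260 under slo RNAi. Its RNAi values, 7.10 and 8.62 CPM, lay within 1.5-fold of each other, and its gap of 5.54 (4.4 to 7.0) was the largest in the set. Of the 74 detected genes of the cuticle list, TwdlO was the 1 higher and Cpr92A the 1 lower (1.35% each, beside 0.494% and 0.607% of all genes). Osi2, of the insect-specific Osiris family, stood at 2.95 CPM in Control and 1.70 in Glioma, against 14.4 under Ca-alpha1T RNAi and 12.9 under slo RNAi. Osi7, of the same family, was on the lower side at 33, 26, 8 and 3 counts.

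The cecropin genes CecC and CecB, which encode peptides that kill bacteria, lay next to each other on 3R between 30213315 and 30216938. CecC had 86 counts in Control and 37 in Glioma, against 3954 under Ca-alpha1T RNAi and 515 under slo RNAi, a gap of 2.96 (2.63 to 3.31). CecB had 4, 3, 541 and 17 counts, a gap of 2.47 (0.85 to 4.50). In both genes Ca-alpha1T RNAi was far the higher of the RNAi libraries. CecA1, also a cecropin gene, was outside the limit, at 0.229, 0.0566, 88.7 and 0.365 CPM, since slo RNAi was within 2-fold of Control. Of the 26 detected antimicrobial peptide genes, 2 were higher (7.69%) and none lower, beside the 0.494% of all genes. In 9 of the 26 both RNAi values lay above both others by some amount, beside 14.2% of all detected genes. Other genes of the list ranked the libraries differently. Drs stood at 2.34, 4348, 116 and 596 CPM, highest in Glioma, and DptA at 30.3, 71.1, 294 and 1.56 CPM, lowest under slo RNAi. The summed level of the list, 282, 4568, 1198 and 678 CPM, was set mainly by Drs. The same uncertainty of read assignment between similar copies holds for the cecropins.

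IBIN, a short gene induced by infection in flies, had 16 counts in Control and 8 in Glioma, against 90 under Ca-alpha1T RNAi and 38 under slo RNAi. The cytokine gene upd3, a ligand of the JAK-STAT pathway released on damage and infection, had 28, 77, 171 and 141 counts, a gap of 1.10 (0.69 to 1.52). Its RNAi values were near each other, and Glioma lay above Control. It was the 1 member of the 16 detected JAK-STAT, Tot and Tep genes (6.25%, beside 0.494% of all genes). Both RNAi values lay above both others in 6 of the 16, beside 14.2% of all genes. The pathway's target gene Socs36E, outside the limit, stood at 45.3, 47.4, 65.7 and 84.5 CPM, and Vago at 12.9, 11.4, 28.4 and 23.3 CPM. Other genes of the list did not separate the sides. TotA stood at 177, 62.7, 177 and 154 CPM, and vir-1 at 191, 364, 309 and 310 CPM.

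The gene y, needed for black pigment, had 15 counts in Control and 205 in Glioma, against 774 under Ca-alpha1T RNAi and 876 under slo RNAi, a gap of 1.94 (1.71 to 2.17). Copies of w, y, v and ry are commonly carried as markers on inserted constructs, and their part in these values was not tested. The gene w stood at 8.76, 224, 184 and 156 CPM, high in the 3 genotypes with added constructs. The gene v had 2.83, 2.95, 4.51 and 6.10 CPM, above both others in both RNAi libraries but outside the limit, and ry had 24.3, 16.7, 17.1 and 13.3 CPM. The labels do not name the marker of any construct.

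phr, which encodes a photolyase that repairs ultraviolet damage to DNA, stood at 11.9 CPM in Control and 13.6 in Glioma, against 43.8 under Ca-alpha1T RNAi and 43.0 under slo RNAi, a gap of 1.66 (1.51 to 1.82). The values on each side were within 1.5-fold of each other. CG33095 gave the same picture at a higher level, with 31.2, 26.4, 82.4 and 79.2 CPM, and CG6763 had 10.5, 8.18, 29.1 and 24.2 CPM, short of 2-fold on FPKM and TPM. The peptidase family genes Nep6 and Nepl18 stood at 2.80, 2.55, 7.91 and 13.2 CPM and at 2.95, 2.21, 7.53 and 7.40 CPM. The receptor gene mthl6, of the methuselah-like family, had 99, 93, 257 and 211 counts. CG12506 stood at 3.49, 2.24, 61.7 and 21.4 CPM, the largest gap on this side after TwdlO and CecC.

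The cytochrome P450 genes Cyp4p1 and Cyp4p2, also neighbours, differed between the RNAi libraries far more than the rule asks. Cyp4p2 had 43 counts in Control and 45 in Glioma, against 93 under Ca-alpha1T RNAi and 4290 under slo RNAi, and Cyp4p1 had 58, 124, 305 and 1464 counts. The gap, of 1.07 (0.54 to 1.62) and 1.32 (1.01 to 1.63), rests on the Ca-alpha1T RNAi library in both genes. This pair, which overlaps the gene hig on the opposite strand, made up 2 of the 66 detected P450 genes (3.03%, beside 0.494% of all genes), and no other P450 gene was a member. The ciliary gene cep290 had 31, 40, 101 and 254 counts, and pre-lola-G, which lies within lola, had 128, 90, 227 and 407 counts.

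**Figure D4:**
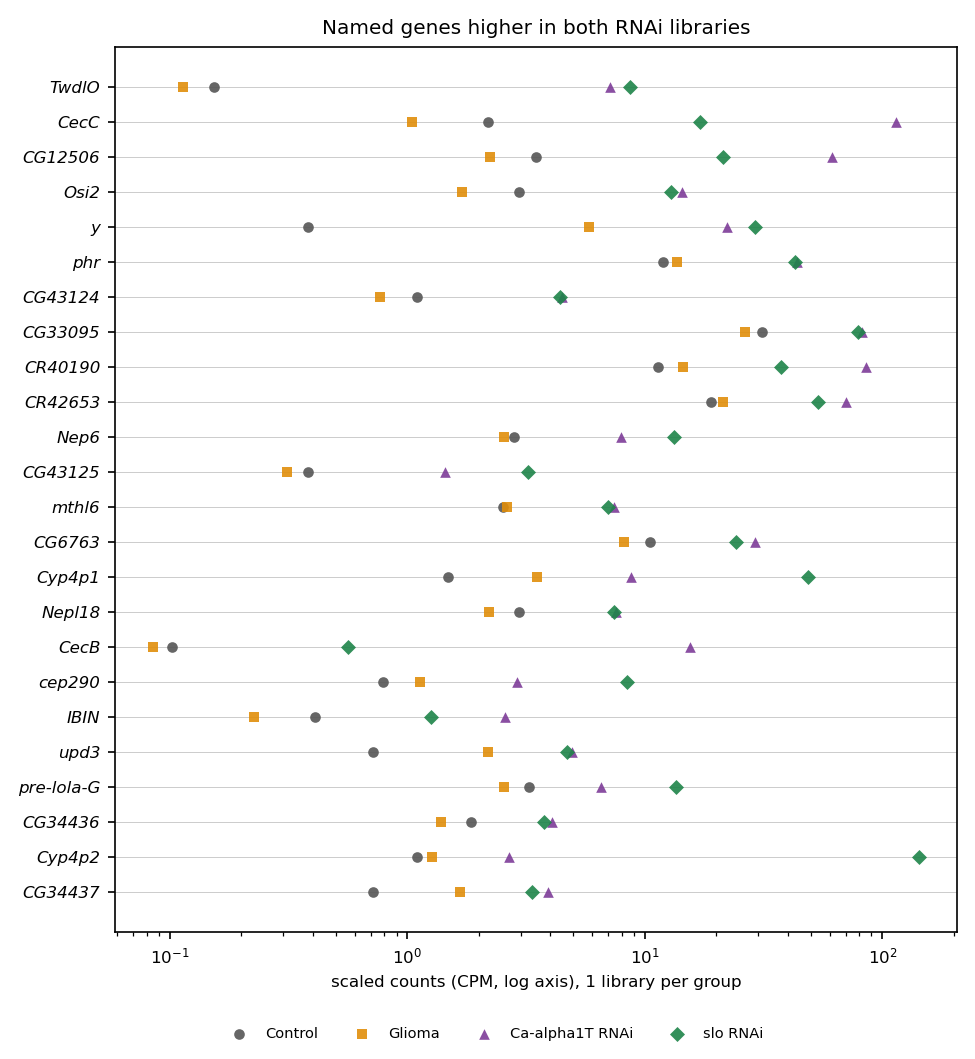
Scaled counts (CPM, log axis) of the named genes higher in both RNAi libraries, 1 point per library, ordered by the bound of the gap nearest to 0. The RNAi libraries lie right of Control and Glioma in each row, by 46.5-fold at the nearest for TwdlO, and apart from each other for Cyp4p2, at 2.67 CPM with Ca-alpha1T RNAi and 142 CPM with slo RNAi.

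In 24 of the 57 higher and 24 of the 70 lower genes the values within each side agreed to within 1.5-fold, against 58.6% of all detected genes. Glioma lay 2-fold or more above Control in 17 of the 70 lower genes (24.3%) and in 10 of the 57 higher genes (17.5%), with 10.5% among all detected genes. slo RNAi lay 2-fold or more below Ca-alpha1T RNAi in 16 of the 70 lower genes (22.9%, against 6.23% of detected genes) and 2-fold or more above it in 6 (8.57% against 5.37%). Among the 57 higher genes it lay 2-fold or more below in 6 (10.5%) and above in 7 (12.3%). The nearest pair across the sides was set by Ca-alpha1T RNAi in 45 of the 70 lower genes and by slo RNAi in 31 of the 57 higher genes.

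The higher side held more noncoding genes, most of them weakly counted. It comprised 38 protein-coding genes (66.7%, against 93.0% of detected genes), 7 long noncoding RNAs, 6 antisense RNAs, 3 small nucleolar RNAs and 3 pseudogenes. Of its noncoding genes, only CR40190, CR42653, CR43086, asRNA:CR45822 and lncRNA:CR45225 reached 50 counts in any library. The lower side comprised 63 protein-coding genes, 4 long noncoding RNAs, 2 antisense RNAs and the ribosomal RNA pseudogene. The pseudogenes CR40190 and CR42653, neighbours on 2R, were among the most abundant higher genes, at 11.4, 14.5, 85.7 and 37.4 CPM and at 19.0, 21.3, 70.0 and 53.7 CPM. Genes with only a clone or RNA number for a symbol made up 63.2% of the higher and 64.3% of the lower genes, against 42.6% of detected genes. Another annotated gene overlapped 26 of the higher and 28 of the lower genes, on the opposite strand in 20 and 18. These were 45.6% and 40.0%, against 51.0% of detected genes with an annotated position, and 35.1% and 25.7% on the opposite strand, against 41.7%. The library kit keeps the strand, but whether counting used it is not given in the labels or headers, so reads of such pairs cannot be told apart. The genes phr, y, Cyp4p1, Cyp4p2, Nep6 and Nepl18 were among those overlapped on the opposite strand.

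By chromosome arm, 25 of the 70 lower genes lay on 3R (35.7%, against 24.6% of detected genes), 20 on 3L (28.6% against 19.6%) and 4 on X (5.71% against 16.3%). Of the 57 higher genes, 17 lay on 2R (29.8% against 20.3%). Some members were next to each other among the detected genes, in 4 runs of higher genes and 6 of lower genes. No comparison over all detected genes was made for such runs, and they are given as positions only. The longest run held 4 genes, CG43125, CG43124, CG34436 and CG34437, on 3R from 28262735 to 28284725, all listed as serine protease homologues. Their counts in Control, Glioma, Ca-alpha1T RNAi and slo RNAi were 15, 11, 50 and 97 for CG43125, and 43, 27, 156 and 133 for CG43124. CG34436 and CG34437 lay just inside the limit, and CG34436 fell outside it on total counts, FPKM and TPM. On X, CG32751, singled out for its position after the values were seen, lay 4097 bases from the targeted gene Ca-alpha1T and had 31, 85, 306 and 207 counts, a gap of 1.51 (1.14 to 1.89). The nearest member to slo, CG33095, lay 386 kb away.

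Of 33 lists, 24 had no member in the set, among them glial identity (27 detected genes), neuronal markers (20), neuroblast genes (18), cell cycle (35), EGFR and Ras signalling (23), PI3K, insulin and TOR (20), ion channels (37), ecdysone response (34) and sarcomere (29). As 1.1% of detected genes were members, an empty list of this size is near the background and says nothing particular about its pathway. In 10 of the 20 PI3K, insulin and TOR genes both RNAi values lay above both others by less than 2-fold, and in 16 of the 35 cell cycle genes below both, beside 14.2% and 15.7% of all detected genes. These gaps were small, from 0.03 (Akt1) to 0.40 (foxo) and from −0.02 (His4r) to −0.38 (PCNA). The choice of scaling alone moved the median log2 ratio over all detected genes from −0.02 to 0.12, on TPM. The 15 genes of RNA interference and small RNAs also had no member. Both RNAi values lay above both others in 3 of the 15 and below both in 0, beside the same 14.2% and 15.7%. AGO2, the slicer of RNAi, stood at 273, 249, 253 and 254 CPM in Control, Glioma, Ca-alpha1T RNAi and slo RNAi, and Dcr-2, which cuts double-stranded RNA, at 104, 78.7, 101 and 99.5 CPM. Lysozyme genes had a list median of 2.97 with no member, and their summed level was 178, 233, 126 and 4429 CPM, high under slo RNAi alone. LysD stood at 30.6, 12.8, 9.95 and 2111 CPM. Of the 127 members, 108 were in no list.

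**Figure D5:**
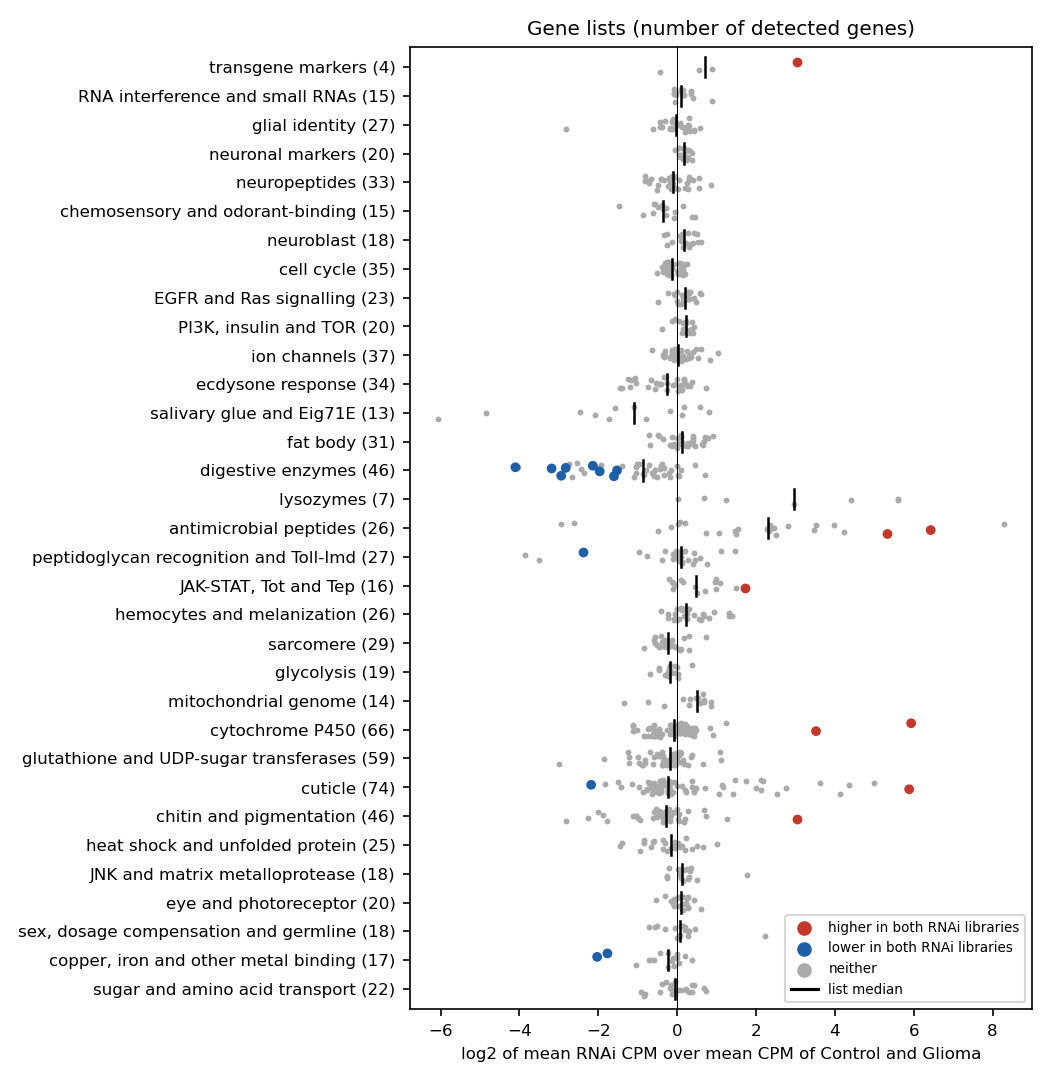
Each point is a detected gene of a list, placed at the log2 ratio of the mean RNAi CPM to the mean CPM of Control and Glioma, with members of the set in red (higher) and blue (lower) and list medians as black bars. The 8 lower genes of the digestive list, which also holds lipid-handling proteins, lie among a list with a median of −0.85. The lysozyme and antimicrobial medians of 2.97 and 2.32 go with 0 and 2 members. The mean RNAi CPM can rest on 1 library. Under Ca-alpha1T and slo RNAi, AttD stood at 107 and 0.862 CPM, and LysD at 9.95 and 2111 CPM.

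Near the limit, small changes decide membership. Just inside were pre-lola-G, CG34437 and CG34436 on the higher side, at 2.0-fold to 2.02-fold, and Jon65Ai, epsilonTry and CG13856 on the lower side, at 2.01-fold to 2.02-fold. Just outside were snoRNA:Me28S-C2645b, lncRNA:CR44912 and Srr, at 1.95-fold to just under 2.0-fold, and CG13077, sunn and the pupal cuticle gene Pcp, at 1.96-fold to 1.98-fold. Pcp had 125 CPM in Control and 139 in Glioma, against 64.0 under Ca-alpha1T RNAi and 55.0 under slo RNAi.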

How the data were processed

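Read counts, FPKM and TPM per gene and library were deposited by the authors in 1 table of 11880 genes, per the file headers; no listed gene has a count under 1, so genes with 0 counts in a library are not analysed here. Tools listed without roles in the submitters' processing notes are HISAT2 2.1.0, StringTie 2.1.3b, Trimmomatic 0.38, FastQC 0.11.7 and edgeR, with the build dm6. TMM factors from edgeR 4.0.16 in R 4.3.3 scaled the deposited counts. The rule (2-fold, 10 counts) and binomial intervals were computed in Python 3.11.15 with scipy 1.17.1 and checked on simulated data. Positions came from the Ensembl annotation in dm6 coordinates, and protease numbers from RefSeq synonyms. Of 1074 list entries 902 matched a listed gene, 37 of them by an older name. The members and lists were chosen with earlier results of these data known. Named genes are the manipulated genes, the 15 named and 3 numbered members a side ranked by interval bound, the 10 most abundant, up to 4 per list, those nearest the limit and the longest run; others are said to be chosen later or illustrate a list. No test was made, since each genotype has 1 library. Alternatives were DESeq2 1.42.0 size factors, total counts, FPKM, TPM, a prior count of 5, other count and fold limits, and leaving out each library.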

Additional observations from a re-analysis of the deposited data

How the results depend on the processing

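DESeq2 size factors, total counts, FPKM, TPM and no count minimum kept both numbers of genes within 1.5 times of 57 higher and 70 lower, and 50 of the 57 and 49 of the 70 passed under all of DESeq2 size factors, total counts, FPKM and TPM. A minimum of 50 counts left 33 higher genes, by removing weakly counted genes. A prior count of 5 left 32, and those lost include genes near the limit with more counts, such as pre-lola-G, whose gap became 0.97, and Cyp4p2, whose gap became 0.99. A limit of 4-fold left 6 higher and 14 lower genes, and 1.5-fold gave 163 and 155. Leaving out a library asks less of each gene, so the numbers grow by construction: without Control there were 278 higher and 328 lower genes, without Glioma 419 and 246, without Ca-alpha1T RNAi 226 and 359, and without slo RNAi 230 and 221. No paired analysis was possible because each genotype has 1 library. The share of members due to differences between larvae of 1 genotype cannot be given, and depth limits the weakest genes, whose intervals include equality.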

Other observations

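A few members of opposite direction lay near each other. CG33469, among the higher genes, and CG33468, among the lower genes, lay 5 bases apart on 2R. CG33469 had 17 counts in Control and 16 in Glioma, against 33 under Ca-alpha1T RNAi and 41 under slo RNAi, while CG33468 had 72 and 34 in the first pair of libraries and 11 in each RNAi library. Both genes are weakly counted, and how reads at their shared border were assigned is not given in the sources. The receptor gene mthl6, higher, lay 9293 bases from CG8539, lower, on 3L, and CR43086, higher, lay 15375 bases from CG16775, lower, on the same arm.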
